A study of Mus musculus with 4 samples.

Results

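Serotonin receptor genes were followed in the frontal cortex of mice given 1 of 4 antipsychotic drugs. The 10 genes listed, Htr1a, Htr1b, Htr2a, Htr2b, Htr2c, Htr3a, Htr4, Htr5a, Htr6 and Htr7, were matched by gene symbol to the features of the array, and 9 of them were found, each with 1 feature, among 16504 genes in all. Htr1b was not analysed here. Since each gene had 1 feature, no average over features was needed, and no second feature was at hand to check it. None of the 9 genes had a deposited value of exactly 0, so each had a ratio on all 4 arrays.

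The mice were male ddY, an outbred stock, 13 weeks old, and were injected intraperitoneally once a day for 28 days. Both chlorpromazine and thioridazine were dosed at 25 mg/kg, whereas the olanzapine dose was 1.25 mg/kg and the quetiapine dose 18.75 mg/kg; the fifth group received vehicle. The drug solutions held 0.5% acetic acid in saline, so all drug-treated mice received it; the make-up of the vehicle is not stated in the labels. Each drug had 1 dual-colour array, with drug RNA in cyanine 5 and vehicle RNA in cyanine 3 and no dye swap, so each drug has a single ratio per gene and no replicate. The labels state neither the number of mice behind an array nor whether the arrays share a vehicle RNA.

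Serotonin acts through G protein-coupled receptors and through the 5-HT3 receptor, which is a ligand-gated cation channel. The 5-HT1 and 5-HT5 families couple mainly to Gi and lower cyclic AMP, the 5-HT2 family couples to Gq and phospholipase C, and the 5-HT4, 5-HT6 and 5-HT7 receptors couple to Gs and raise cyclic AMP. Antipsychotic drugs bind several of these receptors besides the dopamine D2 receptor. The 5-HT2A receptor is the best known of these secondary targets, above all for olanzapine and quetiapine. In the cortex the 5-HT2A receptor lies mostly on pyramidal neurons and the 5-HT3A subunit marks a class of interneurons.

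On this platform the ratios were read as log10 and converted to log2, and drug over vehicle is the likely direction from the dyes, though neither base nor direction is stated for the table. If the direction were the reverse, every higher and lower below would change places. The table holds ratios without intensities, so receptor levels, their order and their distance from background are unknown, and the tissue could not be checked by marker levels. Repeated spots give the only error within an array: over 48 accessions with at least 10 features, their standard deviation had a median of 0.06 log2 units for chlorpromazine, 0.10 for quetiapine and 0.16 for both thioridazine and olanzapine. The spread between mice is unknown. The 5 neutrophil marker genes had a median log2 ratio of -0.12 for chlorpromazine, 0.33 for thioridazine, 0.83 for olanzapine and 3.27 for quetiapine. All 5 were above vehicle on the thioridazine, olanzapine and quetiapine arrays alike, and their part in the receptor values was not tested.

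The promoters of 3 receptor genes are shown, as those of the genes with the largest root mean square log2 ratio over the arrays that have an entry in the RefSeq promoter table (GRCm38.p6), which covered 8 of the 10 genes. Each run has 300 bases, 250 before and 50 after a RefSeq transcript start, and capitals mark a GC box or the core of a cyclic AMP response element on either strand. Htr2b lies at chr1:86111931-86112230 on the minus strand, Htr2a at chr14:74640624-74640923 on the plus strand and Htr7 at chr19:36057311-36057610 on the minus strand.
Htr2b: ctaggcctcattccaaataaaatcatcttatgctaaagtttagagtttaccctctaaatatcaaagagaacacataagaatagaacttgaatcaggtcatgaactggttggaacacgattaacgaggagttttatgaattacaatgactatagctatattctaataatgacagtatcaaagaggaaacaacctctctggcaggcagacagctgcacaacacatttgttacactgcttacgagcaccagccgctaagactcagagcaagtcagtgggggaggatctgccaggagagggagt
Htr2a: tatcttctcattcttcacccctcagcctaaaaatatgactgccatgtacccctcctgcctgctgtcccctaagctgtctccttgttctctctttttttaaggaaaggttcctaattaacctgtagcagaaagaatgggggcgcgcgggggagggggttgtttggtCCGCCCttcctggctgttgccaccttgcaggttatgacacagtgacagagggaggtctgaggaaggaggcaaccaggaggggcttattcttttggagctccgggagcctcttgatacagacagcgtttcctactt
Htr7: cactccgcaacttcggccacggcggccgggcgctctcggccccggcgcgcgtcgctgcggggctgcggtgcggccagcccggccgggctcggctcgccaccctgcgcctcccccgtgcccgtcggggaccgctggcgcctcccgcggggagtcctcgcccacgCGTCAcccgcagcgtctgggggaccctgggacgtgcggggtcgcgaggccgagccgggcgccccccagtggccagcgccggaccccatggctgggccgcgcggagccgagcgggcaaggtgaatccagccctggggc
The Htr2b promoter was 41.0% G or C with 4 CpG dinucleotides, that of Htr2a 52.0% with 6, and that of Htr7 81.0% with 46, beside a median of 52.7% and 7 over 32851 promoter entries. Both strands were searched for the cyclic AMP response element, spelled TGACGTCA, for its core, spelled TGACG, for the GC box, spelled GGGCGG, for the TATA box, spelled TATAAA, and for the CCAAT box. The Htr2a window held 1 GC box, a motif found in 35.7% of all entries, and the Htr7 window held 1 TGACG, found in 20.8%; TGACG lies within TGACGTCA. None of the 5 motifs was in the Htr2b window. The arrays measured RNA ratios and no binding, so these matches describe the sequences alone.

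Htr2b was the lowest of the 9 receptor genes on each of the 4 arrays. Htr7 was the only 1 of the 9 at least 2-fold from vehicle on any array, beside 12.2% of all genes. Htr1a, Htr2c, Htr5a and Htr6, 4 of the 9, stayed within 0.25 log2 units of vehicle with every drug, as did 28.3% of all genes. Htr2a, Htr3a and Htr4 had ratios on both sides of vehicle, depending on the drug.

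**Figure D1:**
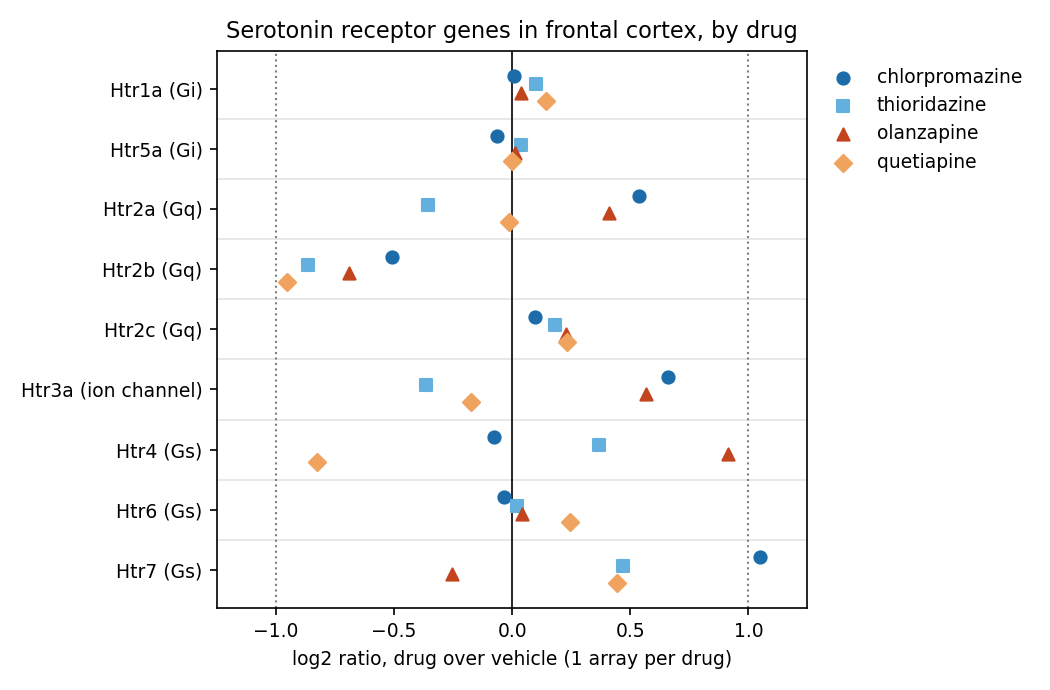
Log2 ratio of drug over vehicle (x axis) for the 9 measured serotonin receptor genes (rows, with the coupling of the receptor), 1 point per drug array; dotted lines mark 2-fold. Htr2b lies between -0.95 and -0.51 with the 4 drugs, and Htr4 spreads from -0.83 after quetiapine to 0.91 after olanzapine.

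Among the receptors that couple to Gi, Htr1a encodes the autoreceptor of serotonin neurons, which is also found on cortical neurons. Its log2 ratio was 0.01 after chlorpromazine, 0.10 after thioridazine, 0.04 after olanzapine and 0.14 after quetiapine. All 4 values were above vehicle and spanned 0.13 log2 units, though that after chlorpromazine, 0.0076, was level with the array median of 0.0073. Htr5a, for the 5-HT5A receptor, had -0.06 after chlorpromazine, 0.04 after thioridazine, 0.01 after olanzapine and 0.000078 after quetiapine. All 4 arrays therefore placed Htr5a close to vehicle.

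In the Gq-coupled family, Htr2b encodes the 5-HT2B receptor, known above all from heart valves and the gut. Its log2 ratio was -0.51 after chlorpromazine, -0.86 after thioridazine, -0.69 after olanzapine and -0.95 after quetiapine. Vehicle was thus above drug by 1.42-fold, 1.82-fold, 1.61-fold and 1.94-fold in that order, and every drug lay below vehicle. Against all genes of the same array, Htr2b stood at the 4.41th percentile after chlorpromazine, the 3.49th after thioridazine, the 6.39th after olanzapine and the 2.60th after quetiapine.

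Htr2a, the gene of the 5-HT2A receptor, had a log2 ratio of 0.53 after chlorpromazine, -0.36 after thioridazine, 0.41 after olanzapine and -0.01 after quetiapine. It was above vehicle after chlorpromazine and olanzapine, below after thioridazine and level after quetiapine. After chlorpromazine it stood at the 95.6th percentile of all genes, and after thioridazine at the 15.7th. Pyramidal neuron markers, measured for 10 of 10 genes, had medians of -0.18, -0.18, 0.04 and -0.28 on the chlorpromazine, thioridazine, olanzapine and quetiapine arrays, and their part in the Htr2a values was not tested. In bulk cortex, fewer cells of a type and less RNA per cell cannot be told apart.

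Htr2c, whose receptor is abundant in the choroid plexus as well as in neurons, had log2 ratios of 0.10 after chlorpromazine, 0.18 after thioridazine, 0.23 after olanzapine and 0.23 after quetiapine. All 4 were above vehicle, by at most 1.18-fold. Choroid plexus markers had medians of 0.11, 0.26, 0.21 and 0.10 in the same order over 8 of 10 genes, with a lowest value of -0.66 and a highest of 1.82. Folr1, Clic6 and Otx2 were above vehicle on all 4 arrays. They are the 3 of 8 markers with an unadjusted limma p under 0.05, beside 26.2% of all genes (11.9% higher). None of the 8 passed after adjustment. Sostdc1 had 0.10, -0.48, -0.66 and -0.18 and so lay below vehicle after every drug but chlorpromazine. Ttr, the most abundant transcript of that tissue, had 0.12, -0.19, 0.26 and -0.33 and so lay on both sides of vehicle. The part of choroid plexus tissue in the Htr2c ratio was not tested.

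Htr3a encodes the channel subunit of the 5-HT3 receptor. Its log2 ratio was 0.66 after chlorpromazine, -0.37 after thioridazine, 0.57 after olanzapine and -0.18 after quetiapine. Chlorpromazine and olanzapine were above vehicle by 1.58-fold and 1.48-fold, and the other 2 drugs were below it. Markers of the interneurons that carry this receptor had medians of -0.02, 0.16, 0.09 and 0.00 on the chlorpromazine, thioridazine, olanzapine and quetiapine arrays over 8 of 9 genes, and their part in the Htr3a values was not tested.

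Among the Gs-coupled receptors, Htr4 had the widest range. Its log2 ratio was -0.08 after chlorpromazine, 0.37 after thioridazine, 0.91 after olanzapine and -0.83 after quetiapine. Olanzapine lay 1.88-fold above vehicle and quetiapine 1.77-fold below it. The standard deviation of Htr4 over the 4 arrays was 0.74, at the 94.8th percentile of all genes, whereas that of Htr5a was 0.04, at the 3.75th percentile.

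Htr7, whose receptor has been linked to circadian and mood regulation, had log2 ratios of 1.05 after chlorpromazine, 0.47 after thioridazine, -0.25 after olanzapine and 0.45 after quetiapine. Chlorpromazine was 2.07-fold above vehicle, at the 99.4th percentile of its array, and olanzapine alone was below vehicle. Htr6, whose receptor is found mainly in the brain, had -0.03, 0.02, 0.04 and 0.24 in the same order of drugs. The quetiapine value was the highest of the 4 for Htr6.

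On the chlorpromazine array 1 of 9 receptor genes was at least 2-fold from vehicle, against 1.69% of all genes. The thioridazine array had 0 of 9 (4.52% of all genes), the olanzapine array 0 (7.97%) and the quetiapine array 0 (3.74%). At 1.5-fold the receptor genes numbered 2 for chlorpromazine (6.91% of all genes), Htr7 and Htr3a, and 1 for thioridazine (13.4%), Htr2b. They numbered 2 for olanzapine (17.4%), Htr2b and Htr4, and 2 for quetiapine (12.6%), again Htr2b and Htr4. Htr7 after chlorpromazine lay just inside the 2-fold threshold, and Htr2b after quetiapine, at 1.94-fold, just outside it. The median size of the log2 ratio over the 9 genes was 0.10 after chlorpromazine, 0.36 after thioridazine, 0.25 after olanzapine and 0.23 after quetiapine. The same median over all genes was 0.14, 0.21, 0.21 and 0.19. With 1 array per drug these counts and medians have no replicate check.

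**Figure D2:**
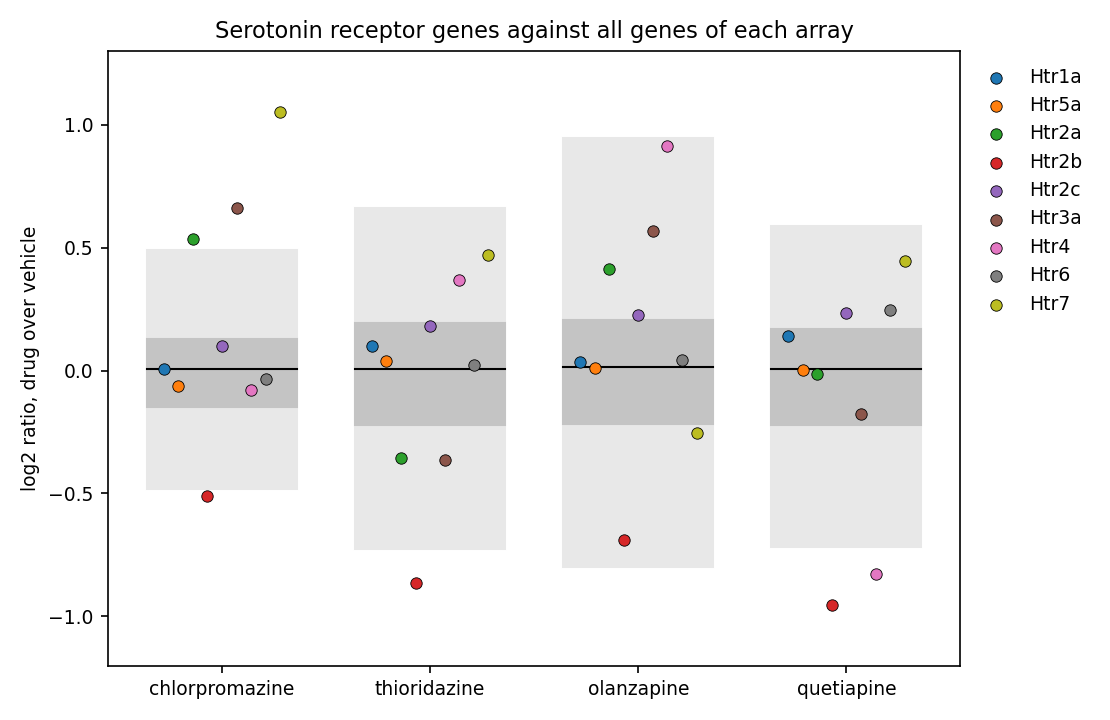
Log2 ratio of drug over vehicle (y axis) of the 9 receptor genes on each array (columns, 1 point per gene), over the range of all genes: light grey from the 5th to the 95th percentile, dark grey the middle quartiles, line the median. Htr2b lies below the light band after chlorpromazine, thioridazine and quetiapine and inside it after olanzapine.

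Whether the 4 drugs together moved a receptor gene was asked with limma, fitted over 16139 genes, as whether the average log2 ratio of the 4 arrays differs from 0. The 4 drugs stand in for replicates of treatment, so the p-values rest on how far these 4 arrays differ from each other, and a dye bias or a vehicle RNA common to the arrays cannot be told apart from a shared drug effect. None of the 9 receptor genes passed, against 0.149% of all genes. At an unadjusted p under 0.05 there were 2, Htr2b and Htr2c, beside 26.2% of all genes, so this count is close to the background.

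Htr2b had a mean log2 ratio of -0.75 ± 0.20 (SD, n = 4 arrays), below vehicle on 4 of 4 arrays. Its 95% interval ran from -0.99 to -0.51, with a limma adjusted p of 0.0647, which misses 0.05. The adjusted p was 0.0494 with the arrays scaled to one spread and ranged from 0.0494 to 0.249 over the alternatives. An exact sign permutation over the 4 arrays gave p = 0.125, 2-sided, the smallest that 4 arrays allow. Markers of leptomeningeal fibroblasts had medians of 0.04, 0.41, 0.27 and 0.10 on the chlorpromazine, thioridazine, olanzapine and quetiapine arrays over 10 of 10 genes. In the same order 6, 9, 9 and 7 of the 10 were above vehicle, with a lowest value of -0.56 and a highest of 2.29. The part of these markers in the Htr2b values was not tested.

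Htr2c had a mean of 0.18 ± 0.06 (SD, n = 4 arrays), above vehicle on 4 of 4 arrays, with a limma adjusted p of 0.150. Its 95% interval ran from 0.04 to 0.33, so the interval excludes a mean change of 2-fold. Htr7 had the highest mean, 0.43 ± 0.53 (SD, n = 4 arrays), and its interval of -0.13 to 0.99 includes 0 (limma adjusted p = 0.271). The means of Htr3a, Htr2a and Htr4 were 0.17, 0.14 and 0.09, each smaller than its own standard deviation of 0.52, 0.41 and 0.74. Single arrays weighed on these means: that of Htr7 was 0.22 without chlorpromazine and 0.65 without olanzapine, that of Htr3a 0.0086 without chlorpromazine and 0.35 without thioridazine, and that of Htr2a 0.015 without chlorpromazine and 0.31 without thioridazine. Htr1a, Htr6 and Htr5a had means of 0.07, 0.07 and -0.0038, and their intervals, from -0.08 to 0.22, from -0.11 to 0.25 and from -0.15 to 0.14, include 0.

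**Figure D3:**
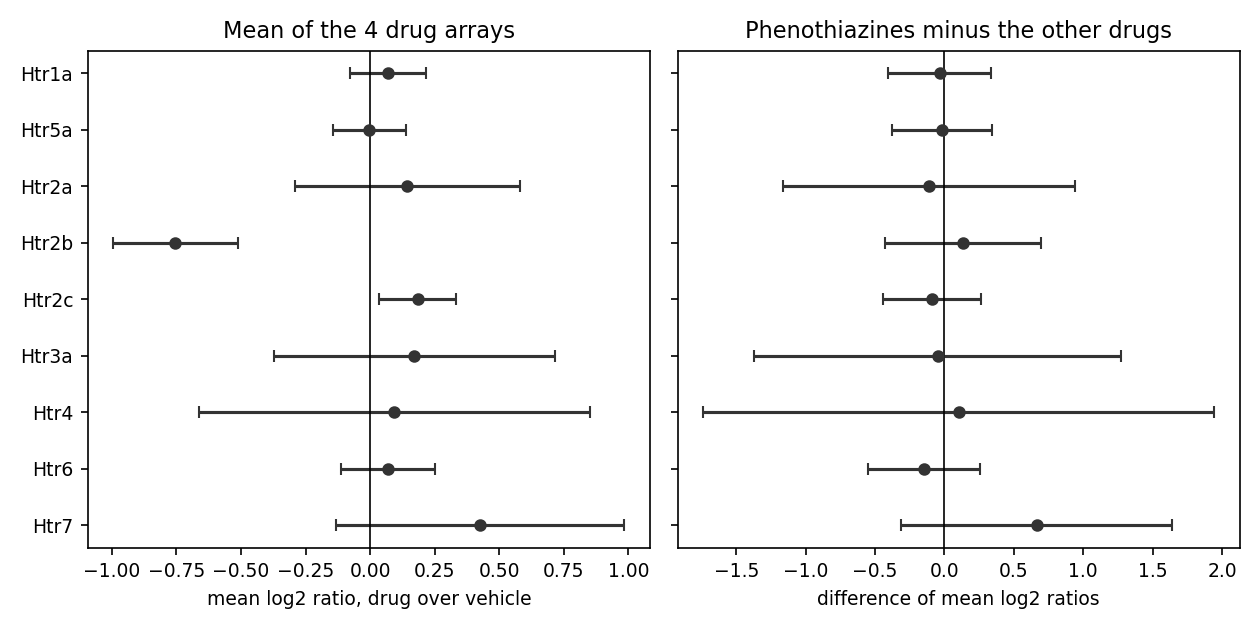
Limma estimates with 95% intervals for the 9 receptor genes (rows); the left panel has the mean log2 ratio of the 4 drug arrays and the right panel the phenothiazine mean minus the mean of olanzapine and quetiapine. The intervals of Htr2b and Htr2c in the left panel do not include 0 before adjustment over all genes, and every interval in the right panel includes 0.

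The drugs also differ in their ring system, since chlorpromazine and thioridazine are phenothiazines while olanzapine and quetiapine hold an azepine ring. Setting the classes against each other, no receptor gene passed with limma and 0 had an unadjusted p under 0.05; over all genes 0% passed and 2.84% had such a p. Class and dose differ together, and with 2 arrays a class an exact permutation cannot go below p = 0.333. The largest difference was that of Htr7, with a mean of 0.76 for the phenothiazines and 0.10 for olanzapine and quetiapine, a difference of 0.66 (95% interval -0.31 to 1.64, limma adjusted p = 0.999). It was 0.31 without the olanzapine array, where that of Htr4, at 0.97, was larger, and 1.01 without the quetiapine array. For Htr2b the means were -0.69 for the phenothiazines and -0.82 for olanzapine and quetiapine, a difference of 0.14 (95% interval -0.43 to 0.70). The widest interval was that of Htr4, from -1.74 to 1.94, so a class difference of 2-fold in either direction is not excluded for it. The same holds for Htr3a, from -1.37 to 1.27. The intervals of Htr2a, from -1.16 to 0.94, and of Htr7 each include a 2-fold difference in a single direction. Htr1a and Htr5a had intervals from -0.41 to 0.34 and from -0.38 to 0.34, which exclude a 2-fold difference. The intervals of Htr2c (-0.44 to 0.26) and Htr6 (-0.55 to 0.25) exclude it as well. That of Htr2b excludes it only with the moderated limma spread. With an ordinary t statistic the Htr2b interval ran from -0.81 to 1.09, so a 2-fold class difference is not excluded for it. All these intervals rest on 2 arrays a class, each of another drug.

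Single drugs were also set side by side. Chlorpromazine and thioridazine, which differ in the ring substituent and the side chain, are the only pair given at 1 dose, 25 mg/kg. Chlorpromazine was above thioridazine by 1.03 log2 units for Htr3a, by 0.89 for Htr2a, by 0.58 for Htr7 and by 0.36 for Htr2b. For Htr4 chlorpromazine was below thioridazine, at -0.08 and 0.37. Of the 9 genes 1, Htr3a, was at least 2-fold apart between these arrays, against 4.13% of all genes. These differences rest on 1 array a drug and have no test.

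The other pairs differ in dose, and their values stand side by side without a comparison of the drugs. Over all 6 pairs, 4 of 54 gene and pair combinations were at least 2-fold apart. They were Htr3a between chlorpromazine and thioridazine, Htr7 between chlorpromazine and olanzapine (1.05 and -0.25, against 7.33% of all genes in that pair), Htr4 between thioridazine and quetiapine (0.37 and -0.83, against 4.96%) and Htr4 between olanzapine and quetiapine (0.91 and -0.83, against 8.28%). No receptor gene was 2-fold apart between chlorpromazine and quetiapine (3.4% of all genes) or thioridazine and olanzapine (5.62%). The Htr4 gap between olanzapine and quetiapine, 1.74 log2 units, was the widest of the 54.

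For the 3 receptor genes with the largest root mean square ratio, Htr2b, Htr4 and Htr7, the genes nearest in the 4 ratios were looked up among 14719 named genes, by root mean square difference over the 4 arrays. Nearest to Htr2b were the DNA damage-inducible gene Gadd45a, at a distance of 0.08 log2 units, Acbd3 at 0.11 and Trappc12 at 0.12. Gadd45a had -0.52 after chlorpromazine, -0.80 after thioridazine, -0.56 after olanzapine and -0.87 after quetiapine. Nearest to Htr4 were Zmynd19 at 0.13, the volume-regulated channel subunit Lrrc8e at 0.17 and Nr4a1, an activity-regulated transcription factor, at 0.17. Nr4a1 had 0.11, 0.16, 0.73 and -0.85 in the same order of drugs. Nearest to Htr7 were the natural killer cell receptor Klra8 at 0.10, Zfp3 at 0.12 and the carotenoid enzyme Bco2 at 0.16. With 4 points a gene and so many candidates, close matches are a description only.

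The remaining genes of serotonin signalling were taken from lists of other receptors, metabolism, coupling and partners, of which 58 of 65 genes were measured on the 4 arrays. None passed over all genes in the mean of the 4 arrays. At an unadjusted limma p under 0.05 there were 13, of which 10 were lower and 3 higher than vehicle, or 22.4% beside 26.2% of all genes (14.2% lower and 11.9% higher). At least 2-fold from vehicle on 1 or more arrays were 7 of the 58, or 12.1%, beside 12.2% of all genes. Both shares are close to the background, and the genes named from here on at an unadjusted p were chosen after their values were seen.

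Among the other receptor genes, Htr1f, for a Gi-coupled receptor targeted by migraine drugs, had log2 ratios of -0.62 after chlorpromazine, -1.27 after thioridazine, -0.66 after olanzapine and -0.30 after quetiapine. All 4 were below vehicle (mean -0.71, limma adjusted p = 0.115). Htr5b, also a Gi-coupled receptor gene, had -0.15, -1.28, -0.07 and 0.59 in that order. Thioridazine was thus the lowest for both. Htr1d and Htr3b had means of 0.08 and 0.19.

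Of 14 measured genes of serotonin synthesis, transport and breakdown, 1 was lower at an unadjusted p and none higher. It was Ddc, the decarboxylase that makes serotonin and dopamine from their precursors, with -0.56, -0.86, -0.997 and -0.95 after chlorpromazine, thioridazine, olanzapine and quetiapine (limma adjusted p = 0.0647). The transporter Slc6a4, the vesicular transporter Slc18a2 and the monoamine oxidase Maoa had means of 0.03, -0.05 and -0.01. Aanat, an enzyme on the path from serotonin to melatonin, had 1.08 after thioridazine and 0.94 after quetiapine, against 0.06 after chlorpromazine and -0.15 after olanzapine. Tph2, the rate-limiting enzyme of serotonin synthesis in the brain, was not analysed here. Cortex receives serotonin fibres from raphe cell bodies in the brainstem, and the 5 measured raphe markers had medians between -0.01 and 0.11 on the 4 arrays. Their single values ran from -0.46 (Gata3 after olanzapine) to 1.33 (Gata2 after quetiapine).

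Of 9 measured genes on the Gq side, 1 was lower at an unadjusted p, the alpha subunit gene Gnaq, with a mean of -0.35 (limma adjusted p = 0.0844). Its 2 features ran from -0.72 to -0.15 and from -0.37 to -0.09, with every value below vehicle. Plcb1, the phospholipase C isoform of cortical neurons, had 1.11 after chlorpromazine, against -0.88, -0.53 and -0.85 after thioridazine, olanzapine and quetiapine. Gna14 reached 1.17 after olanzapine.

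On the Gi side, with 9 genes, Gnaz and the potassium channel subunit Kcnj9 were lower and Gnai1 higher at an unadjusted p, with means of -0.38, -0.44 and 0.16. The 2 features of Gnaz disagreed: 1 lay between -0.93 and -0.49 and the other between -0.46 and 0.22, above vehicle after chlorpromazine and thioridazine. Those of Kcnj9 ran from -0.66 to -0.05 and from -1.07 to 0.18, the latter above vehicle after chlorpromazine. Kcnj5, another subunit of the channels opened by Gi-coupled receptors, had 3.29 after olanzapine and 1.05 after thioridazine, against -0.04 after chlorpromazine and 0.43 after quetiapine. On the Gs side, with 12 genes, Gnal and Creb1 were lower and Adcy8 higher, with means of -0.31, -0.19 and 0.83. The calcium-stimulated cyclase Adcy8 had 1.58 after chlorpromazine, 1.09 after thioridazine, 0.02 after olanzapine and 0.65 after quetiapine. The 2 features of Gnal disagreed: 1 lay between -0.81 and -0.44 and the other between -0.01 and 0.23. Those of Creb1 also disagreed: 1 had 0.12 after olanzapine and 0.0035 after quetiapine, with a lowest value of -0.39. The other Creb1 feature lay between -0.58 and -0.06.

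Of 10 measured genes for receptor partners and desensitisation, Grk5, Arrb2 and Fkbp8 were lower and Arrb1 higher at an unadjusted p. Grk5, a kinase that phosphorylates activated receptors, had -0.45 after chlorpromazine, -0.46 after thioridazine, -0.70 after olanzapine and -0.37 after quetiapine (mean -0.49, limma adjusted p = 0.0754). The arrestins, which bind phosphorylated receptors, had means of -0.23 for Arrb2 and 0.18 for Arrb1. S100a10, a partner of the 5-HT1B and 5-HT4 receptors, had -0.14, 0.18, 0.43 and -0.02 after chlorpromazine, thioridazine, olanzapine and quetiapine. No gene of this list was 2-fold from vehicle on any array.

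**Figure D4:**
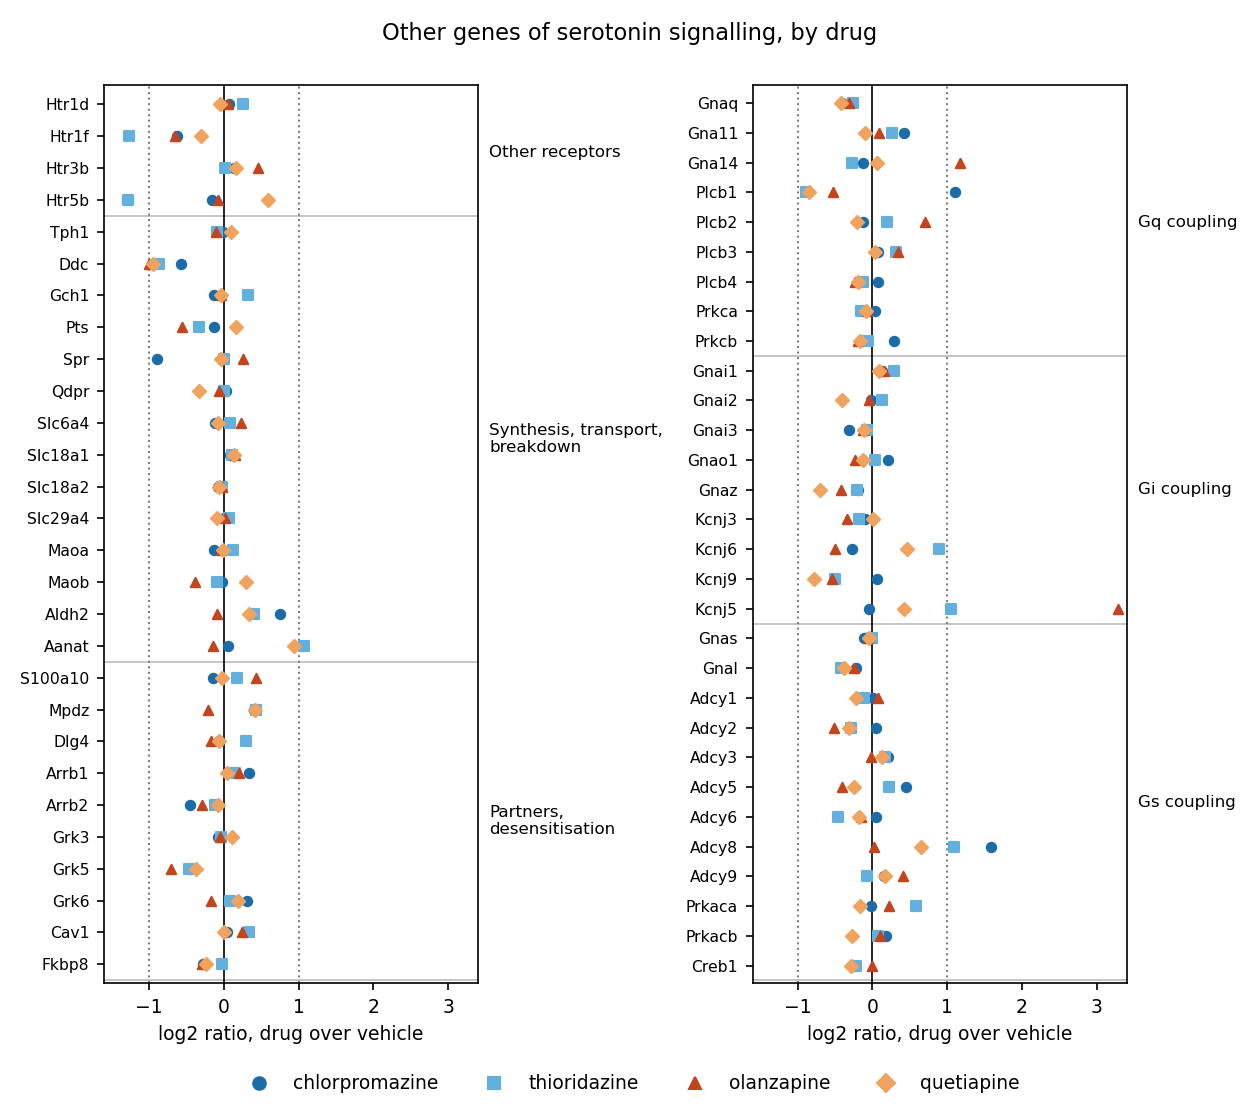
Log2 ratio of drug over vehicle (x axis) for 58 other genes of serotonin signalling (rows, by list), 1 point per drug array; dotted lines mark 2-fold. Kcnj5 after olanzapine, at 3.29, lies furthest from vehicle, and the 4 points of Ddc lie between -0.997 and -0.56.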

How the data were processed

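The deposited table gives, for frontal cortex RNA, 1 column per dual-colour Agilent array. Its values were read as log10 ratios; per the labels, the authors read the images in Agilent Feature Extraction 7.1 and normalised the dyes by LOWESS after filtering for rank consistency. The median deposited log10 ratio was 0.00376 for olanzapine and 0 for the other 3 drugs; base, direction and centring are unstated.

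Of 22393 features, 18218 had 1 symbol, 16 several and 4159 were unnamed here; 18175 were renamed by Entrez identifier. Exact zeros (198 to 594 an array) were taken as missing, ratios converted to log2 and features averaged per gene. Limma 3.58.1 in R 4.3.3 ran with Benjamini-Hochberg adjustment over 16139 genes, and single arrays had no test. A run on simulated data checked only that shifts added to independent noise were estimated at their size. It held no dye bias or vehicle RNA common to the arrays. All 10 receptor genes were to be named. From other lists the plan was to name genes called or 2-fold on an array, at most 4 a list. The 3 genes nearest in ratio to each of 3 receptor genes were to be named too. Other list genes, such as Grk5, Slc6a4 and S100a10, were named outside this plan. The small number of arrays limits precision. Members and lists were chosen with earlier results of these data known. Alternatives changed the log base, zeros, features, centring, scaling, moderation, fold minimum, the arrays required and the arrays left out.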

Additional observations from a re-analysis of the deposited data

How the results depend on the processing

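No paired analysis was possible because each drug has 1 array and the labels carry no replicate numbers. Scaling the arrays to one spread brought the number of receptor genes passing in the shared change to 1, Htr2b, and the number of all genes passing to 62, against 24; an ordinary t statistic gave 0 over all genes (3548 at an unadjusted p under 0.05), and so did leaving out any 1 array (0 to 0, with 2489 to 3533 at an unadjusted p under 0.05 by limma). No receptor gene passed when an array was left out. Without 1 array, the mean of Htr5a ranged from -0.018 to 0.017 and that of Htr4 from -0.18 to 0.40, so both crossed 0, Htr5a without the chlorpromazine array and Htr4, at -0.18, without the olanzapine array. Means also moved over 1.5 times for Htr7 (0.22 to 0.65), Htr2a (0.015 to 0.31), Htr3a (0.0086 to 0.35) and Htr6 (0.010 to 0.10, lowest without quetiapine). The class differences then ranged from 0.31 to 1.01 for Htr7 (lowest without olanzapine, highest without quetiapine), -0.25 to -0.049 for Htr6, -0.13 to -0.050 for Htr2c, -0.088 to 0.018 for Htr1a, -0.56 to 0.34 for Htr2a, -0.042 to 0.31 for Htr2b, -0.56 to 0.47 for Htr3a, -0.77 to 0.97 for Htr4 and -0.070 to 0.033 for Htr5a. With scaling the class differences of Htr2a and Htr3a were 0.025 and 0.12, on the other side of 0. With the values read as log2, 0 receptor genes were 2-fold on the chlorpromazine array. At 1.5-fold, 2, 1, 2 and 2 genes were called on the chlorpromazine, thioridazine, olanzapine and quetiapine arrays. For the pairs of drugs the alternatives were chosen after seeing the data: 0 of 54 combinations were 2-fold apart with the values read as log2, and 14 were apart at 1.5-fold. The share of all genes 1.5-fold apart was not computed for the pairs, so the count of 14 has no background beside it. In all, 285 of 314 recomputed values were taken as unchanged. For the value of a gene this meant the same direction and side of the threshold. For a count it meant an equal count or a change of at most 1.5 times. Much of this total was fixed in advance. Each receptor gene had 1 feature and no exact 0, so the zero, feature, moderation and arrays-required settings could not change its direction. Reading the values as log2 only rescaled them. The total is therefore no measure of how stable the values are. The causes of the moves given above were not tested. Signal over background, which would show how far dim receptor probes limit these values, is not in the table.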
